A study of Mus musculus with 12 samples.

Results

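The cytosolic ribosomal protein genes were followed in bulk RNA sequencing of tibialis anterior, the muscle along the shin, from mice. Members were chosen by symbol, as Rpl and Rps genes with a number, the stalk genes Rplp0, Rplp1 and Rplp2, and Rpsa, with at least 10 counts in at least 4 of the 12 libraries. Rpl3, its muscle-type paralog Rpl3l, pseudogene rows and the S6 kinases were left out. Of 83 symbols that matched, 81 passed, 48 of the large subunit and 33 of the small subunit, among 26264 genes in the files. Rpl10l, at 0 counts in every library, and Rpl39l, with 36 counts over all libraries, did not pass. All 81 members were among the 13499 genes tested.

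The study compared 3 groups of 4 libraries. One group was muscle injected with a matrix gel (50 µl at 6 mg per ml), given in the left leg. The second was muscle injected with the same volume of phosphate-buffered saline (PBS), the vehicle, given in the right leg, so that the side of the body goes with the treatment. The third was uninjured muscle. The series title speaks of acute and disuse muscle injury, but the kind of injury in these animals, the time to collection, and the strain, sex and age are not stated in the material used. Nothing states that any group carried an altered allele. Where p-values are given, they measure the spread between these libraries.

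Ribosomal proteins and ribosomal RNA make up the large and the small ribosomal subunit, with close to 1 copy of most proteins in each ribosome. Most of their mRNAs begin with a cytosine followed by a run of pyrimidines, the terminal oligopyrimidine (TOP) motif, through which mTORC1 signalling and the RNA-binding protein Larp1 control their translation and stability. In skeletal muscle, ribosome content is known to follow growth, disuse and repair.

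RefSeq gives a start site for 61 of the members, at 72 sites, on the build GRCm38.p6. A run of at least 5 pyrimidines that opens with C, on the transcribed strand, starting within 10 bases of the annotated start, was found at 54.2% of these sites, against 30.7% of all 32851 RefSeq start sites. A run of at least 8 was found at 34.7% of the members' sites and 8.11% of all sites, and a run of at least 5 exactly at the annotated start at 19.4% and 2.51%. The windows below run from 10 bases before the annotated start to 20 bases from it on, with the run in capitals, and are shown for members whose levels are described further on and for examples with and without the run. The first 6 hold a run that starts within 10 bases of the annotated start, and the last 4 do not. In the windows of Rpl11 and Rplp0 a run of at least 5 starts further downstream and is not in capitals.
Rpl38 (chr11:114668570-114668599, plus strand): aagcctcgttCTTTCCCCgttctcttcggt
Rpl27a (chr7:109519185-109519214, plus strand): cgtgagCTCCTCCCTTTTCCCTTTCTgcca
Rps6 (chr4:86857348-86857377, minus strand): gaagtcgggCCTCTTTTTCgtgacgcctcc
Rpl31 (chr1:39367841-39367870, plus strand): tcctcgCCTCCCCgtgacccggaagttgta
Rpl39 (chrX:37085203-37085232, minus strand): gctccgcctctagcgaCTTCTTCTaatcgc
Rpl15 (chr14:18270967-18270996, minus strand): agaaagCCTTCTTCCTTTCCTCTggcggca
Rpl11 (chr4:136053374-136053403, minus strand): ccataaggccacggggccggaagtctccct
Rps28 (chr17:33824543-33824572, minus strand): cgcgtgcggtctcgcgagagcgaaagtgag
Rplp0 (chr5:115559457-115559486, plus strand): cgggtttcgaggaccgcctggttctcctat
Rpl4 (chr9:64173377-64173406, plus strand): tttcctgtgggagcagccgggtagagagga

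Library totals ran from 15626086 to 22182483 counts. Muscle fibre markers, among them Acta1, Ckm and Myh4, summed to 128425 to 216007 CPM (counts scaled to a common library size) in every library, so the labelled tissue was matched by its markers. Gel library 3 lay far from gel libraries 1, 2 and 4. The 12 macrophage and monocyte markers summed to 1011, 1586 and 1835 CPM in gel libraries 1, 2 and 4, to 99.1 CPM in gel library 3, to 28.1 to 59.4 CPM in the PBS libraries and to 39.6 to 79.6 CPM in the uninjured libraries. Every one of these 12 markers, and every one of the other marker genes searched, had a count in each group. The 8 fibroblast markers summed to 3853, 3355 and 4266 CPM in gel libraries 1, 2 and 4, to 637 CPM in gel library 3, to 527 to 1317 CPM in the PBS libraries and to 628 to 982 CPM in the uninjured libraries. In bulk tissue, fewer cells of a type and less RNA per cell cannot be told apart.

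The members took 1.67% to 1.82% of all counts in the uninjured libraries. In PBS libraries 1 to 4 they took 1.31%, 1.36%, 1.60% and 1.65%, all below the lowest uninjured library. In gel libraries 1 to 4 they took 1.85%, 2.06%, 1.68% and 2.41%, so that 3 gel libraries were above every uninjured library and gel library 3 lay among them. After scaling for library composition, the median member in each PBS library lay 0.56, 0.49, 0.17 and 0.21 log2 units below its uninjured mean, in the order of the library numbers, and PBS libraries 1 and 2 were the lowest of the 12. The median member lay at -0.18, -0.01, -0.08 and 0.12 in the gel libraries and between -0.05 and 0.05 in the uninjured libraries.

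**Figure D1:**
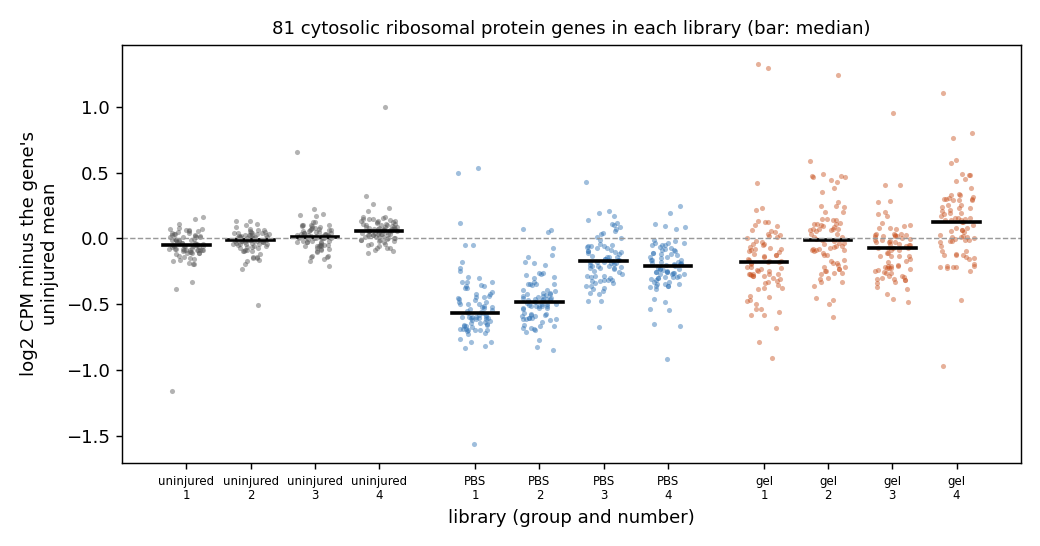
Each point is 1 of the 81 members in 1 library, as its log2 CPM relative to that gene's uninjured mean (vertical axis), and the bar is the library's median. The PBS medians all lie below the uninjured medians, at -0.56 and -0.49 in PBS libraries 1 and 2.

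Levels between genes were compared per kilobase of coding sequence, as the mean CPM of the uninjured libraries, for the 79 members with an annotated coding length. The median member was at 358 CPM per kilobase, and 57 of the 79 lay within 2-fold of it. Rpl41, whose product is the smallest ribosomal protein, ranked first at 2549 CPM per kilobase, and Rps26 was at 1643 CPM per kilobase. At the other end were Rpl7l1 at 32.3, Rpl22l1 at 29.7 and Rps27 at 3.59 CPM per kilobase, the 3 lowest of the 79. Rpl32l and Rps4l, without an annotated coding length, were not ranked, and had means of 0.48 and 2.59 CPM in the uninjured libraries. The Rps27 row held 0.40 to 1.33 CPM over the 12 libraries. Of its annotated 50-base stretches, 98.6% also occur in another annotated gene, so its level is uncertain. Such sharing is common in this family, which has many processed pseudogenes: the median member shares 54.5% of its 50-base stretches, and 45 of 79 share more than 50%. How reads with several matches were counted is not stated in the material used, so the levels of the members are uncertain in that respect.

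PBS against uninjured muscle asks how the vehicle-injected leg differed from muscle with no injury. Ribosomal protein mRNAs were lower in the PBS libraries: 15 of the 81 members fell and 78 of 81 had a fold change below 0, with a median log2 fold change of -0.35 against 0.00 over all genes tested. Of all genes, 3.39% fell and 2.79% rose, against 18.5% of members that fell. By the same quasi-likelihood test of edgeR, 0 members rose. At an unadjusted p under 0.05, 0 were higher, against 1477 of the 13499 genes tested. DESeq2 and limma voom also called 0 higher, against 4.33% and 2.42% of all genes. At an unadjusted p under 0.05, 56 members were lower, against 1552 of the 13499 genes tested. The PBS and uninjured libraries did not overlap, with PBS lower, for 47 members, against 10.2% of all genes (and 10.4% of all genes with PBS higher).

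Rpl31, at the rim of the polypeptide exit tunnel, was at 286, 307, 283 and 294 CPM in the uninjured libraries and at 181, 192, 218 and 186 CPM in the PBS libraries. Every PBS library lay below every uninjured library. It had the largest fall past the threshold, by 0.59 ± 0.12 (SE, n = 4 per group) on the log2 scale (edgeR adjusted p = 0.0104). Rpl21, a large-subunit protein, fell by 0.59 ± 0.14 (adjusted p = 0.0184, edgeR). Its uninjured libraries were at 340.2, 413, 418 and 393 CPM and its PBS libraries at 236, 257, 281 and 268 CPM, again without overlap. Rps25, of the head of the small subunit, fell by 0.55 ± 0.12 (edgeR adjusted p = 0.0112), from 162, 167, 179 and 188 CPM to 102, 108, 132 and 133 CPM. Rpl10, the protein that completes the large subunit in the cytoplasm, fell by 0.54 ± 0.14 (edgeR adjusted p = 0.0304). Rps14, which lies on the platform of the small subunit, fell by 0.52 ± 0.13 (edgeR adjusted p = 0.0305). Rpl11, Rpl12, Rpl14, Rpl26, Rpl37a, Rpl39, Rps6, Rps16 and Rps18 were among the others that fell.

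Rps6, the small-subunit protein phosphorylated by the S6 kinases, was at 169, 173, 186 and 173 CPM in uninjured libraries and 131, 114, 144 and 141 CPM in PBS libraries, a fall by 0.40 ± 0.11 (edgeR adjusted p = 0.0347). Rpl22l1, the paralog of Rpl22, had the largest difference of all members, -0.76 ± 0.24, without passing (edgeR adjusted p = 0.0732). Its PBS libraries held 3.55, 6.85, 8.47 and 6.72 CPM and its uninjured libraries 8.19, 10.8, 12.6 and 11.9 CPM, with an overlap between the groups. Rplp0, the base of the stalk that recruits elongation factors, was among the 3 members with a fold change above 0, at 0.14 ± 0.15 (edgeR adjusted p = 0.620).

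The number of calls in this comparison rested on single libraries and on the fit. Without PBS library 1 it was 2 (2.47% of members against 1.91% of all genes) and without PBS library 2 it was 1 (1.23% against 1.77%). It was 5, 3, 2 and 1 without uninjured libraries 1 to 4, when 2.49%, 1.80%, 1.67% and 1.59% of all genes fell, so the members' share was below that of all genes without PBS library 2 or uninjured library 4. It was 9, 23 and 34 without gel libraries 2, 1 and 3 (3.35%, 4.36% and 6.40% of all genes), and 49 when the PBS and uninjured libraries were fitted alone (61.2% against 8.97%). Rpl31 stayed past the threshold without each of the 12 libraries in turn (edgeR adjusted p from 0.000950 to 0.0435). The call was lost without any 1 of 5 libraries for Rpl21, 2 for Rps25, 7 for Rpl10, 6 for Rps14 and 7 for Rps6. The median member's log2 fold change ran from -0.41 to -0.29 over the same leave-outs.

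Gel against PBS asks how the treated leg differed from the leg given vehicle. Ribosomal protein mRNAs were higher with the gel: 32 of 81 members rose, 39.5% against 16.6% of all genes tested, and 73 of 81 had a fold change above 0. The median member's log2 fold change was 0.31, against 0.04 over all genes. Of all genes 13.2% fell. By edgeR 0 members fell, and at an unadjusted p under 0.05, 1 was lower and 42 were higher. Among the 13499 genes tested, 2553 were lower and 3086 higher at that level. By limma voom 0 fell, against 14.2% of all genes, and DESeq2 called 1 lower, Rpl4, against 13.2%. The gel and PBS libraries did not overlap, with gel higher, for 22 members, against 10.4% of all genes, and with gel lower for 1 member, Rpl4, against 9.74% of all genes. By subunit, 23 of 48 large-subunit and 9 of 33 small-subunit genes rose, a difference that was not tested.

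**Figure D2:**
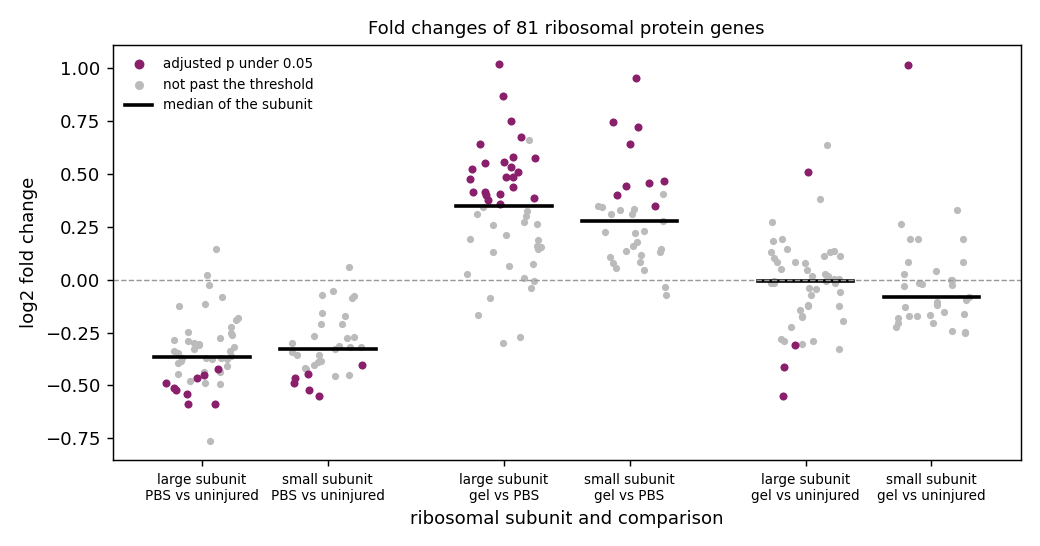
Each point is the log2 fold change (vertical axis) of 1 ribosomal protein gene in 1 of the 3 comparisons, split by subunit, with the genes past the threshold in purple and the median as a bar. The medians are -0.36 and -0.33 for PBS vs uninjured, 0.35 and 0.28 for gel vs PBS and -0.01 and -0.08 for gel vs uninjured, large subunit first.

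Rpl39, a very short protein in the wall of the exit tunnel, rose the most. Its gel libraries were at 55.4, 57.4, 50.1 and 72.2 CPM, its PBS libraries at 25.3, 24.1, 31.5 and 35 CPM, and its uninjured libraries at 42.2, 38.7, 43.5 and 41.0 CPM. The gel libraries lay above all others and the PBS libraries below all others. The rise over PBS was 1.02 ± 0.14 on the log2 scale (2.03-fold, edgeR adjusted p = 0.00108), and the adjusted p stayed at or below 0.00670 without each of the 12 libraries in turn. Rpl17, at the rim of the tunnel, rose by 0.75 ± 0.16 (edgeR adjusted p = 0.00452). It was at 271, 352, 219.7 and 385 CPM in the gel libraries and at 158, 160.3, 204 and 208 CPM in the PBS libraries, without overlap. Rps28, which lies near the mRNA exit of the small subunit, rose by 0.75 ± 0.15 (edgeR adjusted p = 0.00345). Its gel libraries held 63.1, 79.4, 65.3 and 80.8 CPM and its PBS libraries 37.0, 32.4, 47.1 and 55.5 CPM, again apart. Rps12, of the beak of the small subunit and singled out after its value was seen, rose by 0.72 ± 0.16 (edgeR adjusted p = 0.00465), and the zinc-binding Rps29 rose by 0.64 ± 0.13 (edgeR adjusted p = 0.00360).

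Low-level paralogs were also among the largest rises. Rps4l, a paralog of the X-linked Rps4x, was at 6.49, 6.24, 2.50 and 5.68 CPM in gel libraries 1 to 4, at 2.52 to 2.81 CPM in the PBS libraries and at 2.28 to 3.04 CPM in the uninjured libraries. Gel library 3 lay at the level of the other groups, and it is the gel library with the lowest macrophage and fibroblast marker levels; whether those cells had a part in the result was not tested. Rps4l rose by 0.95 ± 0.27 over PBS (edgeR adjusted p = 0.0172), a call lost without gel library 2 or 4 (highest edgeR adjusted p = 0.0567) and with the replicate block. Rpl22l1 rose by 0.87 ± 0.24 (edgeR adjusted p = 0.0147), with gel libraries at 8.20, 12.8, 14.3 and 11.4 CPM, and its lowest gel library lay below its highest PBS library.

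**Figure D3:**
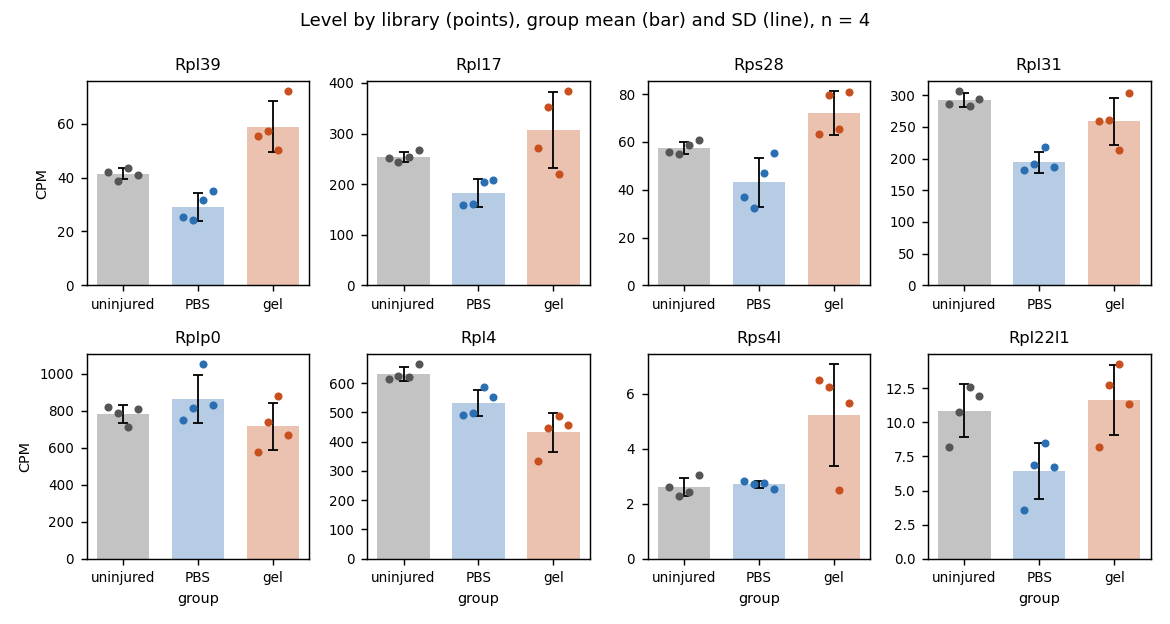
Points are the 4 libraries of each group, bars the group mean and lines the SD, in CPM (vertical axis, starting at 0). Rpl39 is highest in the gel libraries (50.1 to 72.2 CPM) and lowest in the PBS libraries (24.1 to 35 CPM), Rpl4 is lowest in the gel libraries, and Rps4l is at 2.50 CPM in gel library 3 and 5.68 to 6.49 CPM in the other gel libraries.

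The call count of the gel and PBS comparison also moved with single libraries: it was 17 and 14 without gel libraries 2 and 4 (21% and 17.3% of members against 11.1% and 9.86% of all genes). It was 17 and 16 without PBS libraries 1 and 2 (21% and 19.8% against 14.5% and 12.4%), and 41 without gel library 3 (50.6% against 22.7%). With gel and PBS libraries of the same animal as a replicate block it was 17 (background 12.4% higher), the same number as when these 2 groups were fitted alone without the block. All 17 were among the 32. The median member's log2 fold change was 0.25 to 0.36 over the leave-outs. Under scaling by library totals alone, which moves the median of all genes from 0.04 to 0.25, 59 members rose with a median of 0.53, against 25.2% of all genes.

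Gel against uninjured muscle asks what difference from intact muscle was left in the treated leg. Most members were close to the uninjured level, with a median log2 fold change of -0.02 against 0.03 over all genes. By edgeR 2 members rose, Rps4l and Rpl39, and 3 fell, Rpl4, Rpl9 and Rpl15, or 2.47% and 3.70% of members, below the 14.5% of all genes that rose and the 11.1% that fell. Groups did not overlap with gel higher for 2 members, against 11.3% of all genes, and with gel lower for 13 members, against 11.7% of all genes. With scaling by library totals alone, 15 members rose and 0 fell in place of 2 and 3, which is 18.5% of members that rose against 28.1% of all genes, while 5.13% of all genes fell. Without gel library 3, 3 rose and 5 fell, or 3.70% and 6.17% of members against 20.4% and 17.9% of all genes.

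Rpl4, which reaches into the exit tunnel, was at 335, 447, 488 and 457 CPM in the gel libraries, 492, 497, 587 and 553 CPM in the PBS libraries and 615, 625, 622 and 665 CPM in the uninjured libraries. The 3 groups did not overlap. It fell by 0.55 ± 0.13 against uninjured (edgeR adjusted p = 0.00722), and its differences for PBS against uninjured (-0.25 ± 0.13, edgeR adjusted p = 0.284) and gel against PBS (-0.30 ± 0.13, edgeR adjusted p = 0.0937) did not pass. With scaling by library totals the call against uninjured was lost. Rpl9 and Rpl15, both of the large subunit, fell by 0.41 ± 0.13 and 0.31 ± 0.11 (edgeR adjusted p = 0.0313 and 0.0474). The Rpl9 call was lost without any of 4 libraries and the Rpl15 call without any of 8, gel libraries 1 and 2 among them for each. Both calls were lost with scaling by library totals. That of Rpl15 was also lost with no low-count filter and with 2 groups fitted alone. Rpl39 rose by 0.51 ± 0.14 over uninjured (edgeR adjusted p = 0.0146), a call lost without gel library 4 or uninjured library 2 (highest edgeR adjusted p = 0.0778). Rps4l rose by 1.01 ± 0.28 over uninjured (edgeR adjusted p = 0.0144), a call lost without gel library 2 (edgeR adjusted p = 0.0501).

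Members were also grouped by place in the ribosome, after their values were seen, and differences between these groups were not tested. Of the 9 genes of the exit tunnel and its rim (Rpl4, Rpl17, Rpl19, Rpl22, Rpl23a, Rpl26, Rpl31, Rpl35 and Rpl39), 7 rose in gel against PBS, beside 39.5% of members and 16.6% of all genes, with log2 fold changes from -0.30 to 1.02. The 3 stalk genes held fold changes of -0.27 to 0.26 in that comparison, and their groups overlapped in every comparison. Rplp0 was at 575, 736, 879 and 670 CPM in the gel libraries and 752, 815, 1052 and 832 CPM in the PBS libraries (log2 fold change -0.27 ± 0.15, edgeR adjusted p = 0.179). The pair that forms the 5S ribonucleoprotein with 5S ribosomal RNA, Rpl5 and Rpl11, is known for binding Mdm2. Rpl11 fell in PBS against uninjured by 0.45 ± 0.13 (edgeR adjusted p = 0.0441), a call lost without any 1 of 7 libraries. It was also lost with library totals only, with no low-count filter and with the coding length correction. Rpl11 rose in gel against PBS by 0.53 ± 0.13 (edgeR adjusted p = 0.00622). Rpl5 showed -0.11 ± 0.12 in PBS against uninjured (edgeR adjusted p = 0.639). In gel against PBS it was at -0.17 ± 0.12 (edgeR adjusted p = 0.325), opposite in sign to Rpl11 and without a call. Against uninjured, Rpl5 in gel was at -0.28 ± 0.12 (edgeR adjusted p = 0.105), also without a call. Of the 5 genes at the mRNA entry and decoding site (Rps2, Rps3, Rps9, Rps15 and Rps23), the gel against PBS fold changes were 0.08 to 0.31, without a call. Among 8 genes of the mRNA exit and platform, 2 rose, Rps28 and Rps21.

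Other members fixed by name fell between these. Rpl38, which is linked to translation of homeobox mRNAs, rose over PBS by 0.58 ± 0.13 (edgeR adjusted p = 0.00503), and Rpl41 rose by 0.64 ± 0.16 (edgeR adjusted p = 0.00954), a call lost with the coding length correction described further on. Rpl14 rose by 0.47 ± 0.13 (edgeR adjusted p = 0.0131), Rpl7 by 0.41 ± 0.13 (edgeR adjusted p = 0.0268), Rpl22 by 0.44 ± 0.15 (edgeR adjusted p = 0.0346) and Rpl13a by 0.40 ± 0.14 (edgeR adjusted p = 0.0362). Each of these last 4 calls was lost without at least 1 library, and those of Rpl14, Rpl7 and Rpl13a also with gel and PBS paired by animal. Rpsa, the laminin-binding ribosomal protein, was at 776 to 1027 CPM in the PBS, 816 to 1033 CPM in the gel and 926 to 972 CPM in the uninjured libraries, and the 3 ranges overlapped.

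The log2 fold change of gel against PBS was higher in shorter members, and below 0 in the longest class. The 10 members with a coding length under 300 nt had a median log2 fold change of 0.57 and 7 of them rose, the 28 from 300 to under 450 nt had 0.36 and 14 rose, the 19 from 450 to under 600 nt had 0.27 and 5 rose, and the 20 from 600 to under 900 nt had 0.12 and 5 rose. The 2 members of 900 nt or more, Rplp0 and Rpl4, were at -0.27 and -0.30. Other genes tested changed in the same order with a smaller range, with medians of 0.19, 0.14, 0.06, 0.06 and 0.01 over the same classes, of which 28.3%, 18.6%, 18.3%, 16.6% and 15.9% rose. Across the 79 genes, Spearman's rho between coding length and fold change was -0.48 for gel against PBS and 0.34 for PBS against uninjured; these genes share the same 12 libraries and the 2 comparisons share the PBS libraries, so the values are descriptions. With each library's relation between level and coding length taken out, fitted on the genes that are not members (an alternative chosen after seeing the data), 22 of 79 members rose in gel against PBS, against 15.8% of all genes, with a median of 0.21. The same correction left 8 of 79 lower in PBS against uninjured, against 3.33% of all genes, with a median of -0.27.

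**Figure D4:**
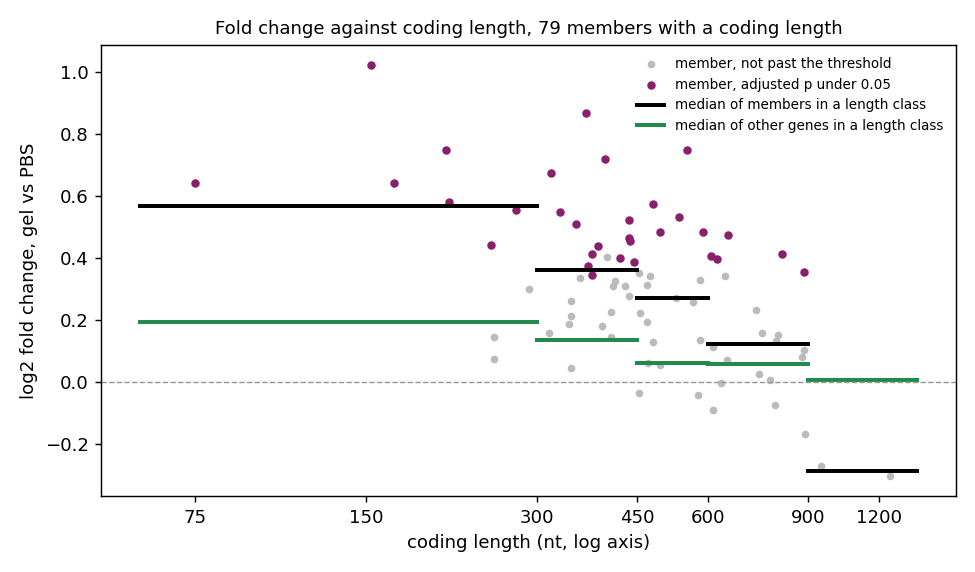
Each point is 1 member, with coding length on a log axis (nt) and the log2 fold change of gel against PBS on the vertical axis, purple where it passed the threshold. The bars are class medians, which run from 0.57 to -0.29 for members (black) and from 0.19 to 0.01 for other genes (green).

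Members were then split by the start-site run, which had to start within 10 bases of the annotated start. In gel against PBS, 18 of 37 members with a run of at least 5, such as Rpl38, Rpl31 and Rpl39 above, and 8 of 24 without one, such as Rps28 and Rpl11, rose, beside 16.6% of all genes, with medians of 0.37 and 0.25. In PBS against uninjured, 6 of 37 and 6 of 24 fell, beside 3.39% of all genes, with medians of -0.36 and -0.30. Whether the split differs beyond the spread was not tested. The split rests on annotated starts, and whether transcripts begin there in this muscle was not tested. A member classed as without a run may therefore still carry the motif.

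Pairs of paralogs were compared as a log2 ratio of counts within each library, which does not depend on scaling, in 4 pairs and 12 tests. Rpl7l1, which resembles a factor of large-subunit assembly, held 23.0 to 25.6 CPM in PBS, 22.3 to 26.8 CPM in gel and 22 to 24.7 CPM in uninjured libraries, while Rpl7 was at 161 to 208 CPM in PBS, 200.9 to 277 CPM in gel and 228 to 262 CPM in uninjured libraries. The log2 ratio of Rpl7l1 to Rpl7 was -2.92 ± 0.16 (SD, n = 4) in PBS, -3.30 ± 0.11 in gel and -3.35 ± 0.09 in uninjured libraries. It was higher in PBS than in uninjured by 0.44 and lower in gel than in PBS by 0.38, without overlap in either case (exact two-sided permutation p = 0.0286 for each, the smallest that 4 against 4 can give, Benjamini-Hochberg adjusted over the 12 tests p = 0.171). The ratio of Rps4l to Rps4x was higher in gel than in PBS by 0.93, with overlap (exact permutation p = 0.114, adjusted p = 0.343), and Rpl22l1 to Rpl22 by 0.46, with overlap (exact permutation p = 0.171, adjusted p = 0.343). For gel against PBS the permutation treated the libraries as independent and left out their pairing by animal. None of the 12 ratios passed after adjustment, and the Rps27l to Rps27 ratio inherits the doubt on the Rps27 row.

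Genes that work with the ribosomal proteins were described from lists chosen with earlier results of these data known. Of 4 further cytosolic ribosome components outside the symbol rule, 2 rose in gel against PBS, beside 16.6% of all genes. Fau, which encodes the small-subunit protein S30, rose by 0.72 ± 0.16 (edgeR adjusted p = 0.00448). Rpl36al rose by 0.38 ± 0.13 (edgeR adjusted p = 0.0426), a call lost without any 1 of 10 libraries and with the pairing by animal. Rack1, the scaffold of the small subunit, was not called. The median of the 4 was -0.34 in PBS against uninjured and 0.21 in gel against PBS.

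Of 28 initiation and elongation factors, 12 fell in gel against PBS, beside 13.2% of all genes, with a median of -0.29. Their summed level was 3525, 4248, 5279 and 3650 CPM in gel libraries 1 to 4 and 5372 to 5963 CPM in the PBS libraries, so gel library 3 was the nearest to PBS. Eif4g1, the scaffold of the cap-binding complex, fell by 1.08 ± 0.19 (edgeR adjusted p = 0.00203), and Eef1a2, the elongation factor of mature muscle, fell by 0.55 ± 0.16 (edgeR adjusted p = 0.0157, and 0.0507 without gel library 4). Eif2s3x, a subunit of the initiator tRNA carrier, fell by 1.07 ± 0.22 (edgeR adjusted p = 0.00335). Of 19 other genes with TOP mRNAs, 2 rose and 5 fell, beside the same 16.6% and 13.2% of all genes. Eef2, the translocation factor, fell by 0.82 ± 0.14 (edgeR adjusted p = 0.00189). Eef1a1, the elongation factor of most non-muscle cells, rose by 1.21 ± 0.25 (edgeR adjusted p = 0.00390) and was 752 ± 310 CPM (SD, n = 4) in gel and 326 ± 50.2 CPM in PBS libraries. Of 20 chaperones and importers of ribosome assembly, 8 fell, beside 13.2% of all genes. Nap1l4 fell by 0.70 ± 0.14 (edgeR adjusted p = 0.00368) and Ipo5 fell by 0.57 ± 0.14 (edgeR adjusted p = 0.00667).

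**Figure D5:**
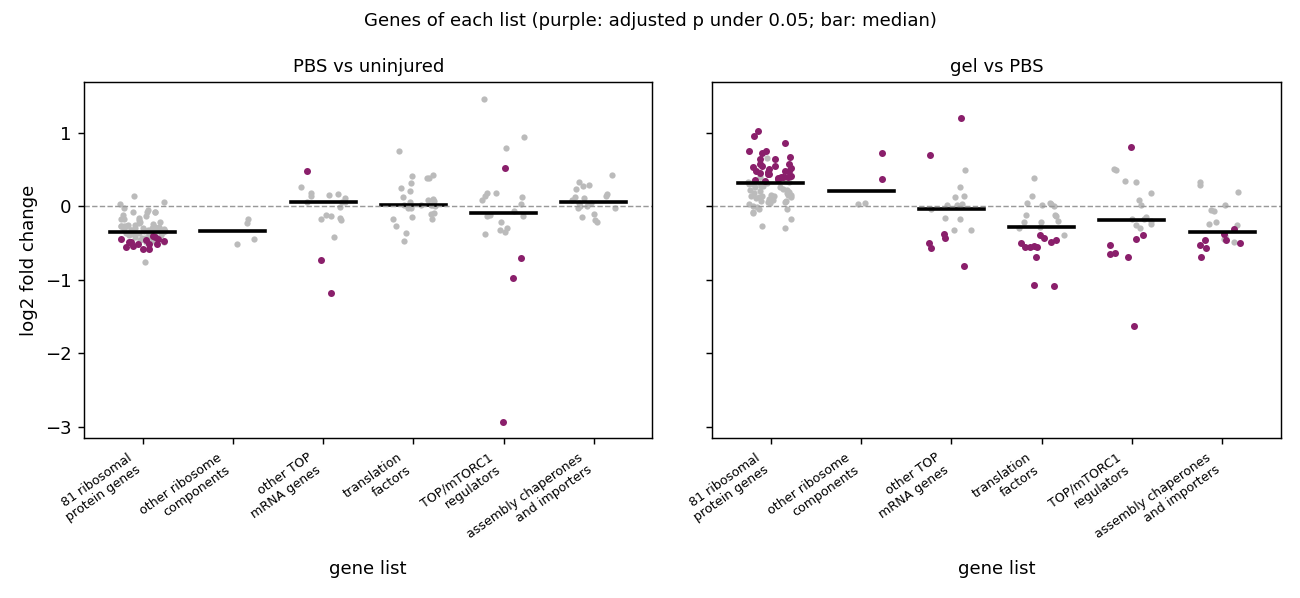
Points are genes of each list, with the log2 fold change on the vertical axis, PBS against uninjured at left and gel against PBS at right, purple past the threshold and bars at the medians. At right the 81 ribosomal protein genes have a median of 0.31, and the translation factors and assembly chaperones have medians of -0.29 and -0.34.

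Regulators of these mRNAs were mixed. Of 22 genes of TOP and mTORC1 control, 1 rose and 7 fell in gel against PBS, beside 16.6% and 13.2% of all genes. Larp1, which binds TOP mRNAs, fell by 0.65 ± 0.15 (edgeR adjusted p = 0.00550), Eif4ebp2, a repressor of cap-dependent initiation, fell by 1.64 ± 0.35 (edgeR adjusted p = 0.00627), and Tia1, a stress granule protein, rose by 0.81 ± 0.15 (edgeR adjusted p = 0.00230). In PBS against uninjured, 1 of the 22 rose and 3 fell, beside 2.79% and 3.39% of all genes. Ddit4, an inhibitor of mTORC1, fell by 2.94 ± 0.35 (edgeR adjusted p = 0.000570), Myc, a driver of ribosome production, fell by 0.98 ± 0.20 (edgeR adjusted p = 0.00947), and Eif4ebp1 fell by 0.70 ± 0.15 (edgeR adjusted p = 0.0103). Each of these 3 calls held without each library in turn. Rptor, the mTORC1 scaffold, rose by 0.52 ± 0.13 (edgeR adjusted p = 0.0218), a call lost without any of 6 libraries. Of the 19 other genes with TOP mRNAs, 1 rose and 2 fell in PBS against uninjured, with a median of 0.05. The 2 that fell were the host genes of small nucleolar RNAs, Snhg1 and Gas5. They fell by 1.18 ± 0.25 (edgeR adjusted p = 0.0121) and 0.73 ± 0.19 (edgeR adjusted p = 0.0321), the second call being lost without any of 7 libraries. Naca rose by 0.47 (edgeR adjusted p = 0.0482), a call lost without any of 10 libraries. Of 13 tested targets of the tumour suppressor Trp53, 1 rose and 3 fell in gel against PBS, where 16.6% of all genes rose and 13.2% fell.

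Markers of other cell types moved with the gel as well. In gel against PBS, all 12 macrophage and monocyte markers rose, as did 5 of 8 fibroblast and 6 of 6 tested proliferation markers. So did 3 of 5 tested leukocyte and 2 of 6 satellite cell markers, while 4 of 12 muscle fibre markers fell and 1 rose. Of all genes tested, 16.6% rose and 13.2% fell. The part of these cell types in the ribosomal protein result was not tested. Gel library 3, low in macrophage and fibroblast markers, had a median member at -0.08, between gel libraries 1 and 2. By the members' share of all counts it was the lowest gel library, at 1.68% against 1.85%, 2.06% and 2.41% in gel libraries 1, 2 and 4. In PBS against uninjured, 2 of 12 muscle fibre markers fell, beside 3.39% of all genes. The macrophage markers stayed at 28.1 to 59.4 CPM in PBS and 39.6 to 79.6 CPM in uninjured libraries.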

How the data were processed

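The authors deposited raw counts of reads per gene symbol, 1 table for each library, per the file headers. STAR and the genome build mm39 are named in the submitters' processing notes, as is edgeR, without versions. The counting program, strand setting, annotation and treatment of reads with several matches are not stated in the material used. Of counts from 1 to 20, 74.9% to 85.9% in each library were even, and above 200 counts 55.5% to 60.0% were; the cause was not tested, and low counts may hold fewer independent fragments than their value.

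Testing was done in R 4.3.3 by edgeR 4.0.16, with filterByExpr, trimmed mean of M values scaling, 1 quasi-likelihood fit with robust estimation on all 12 libraries with 1 coefficient per group, and Benjamini-Hochberg adjustment across 13499 tested genes. The threshold was 0.05. "Rose" and "fell" mean past that threshold. Each SE was taken from the log2 fold change and its F statistic (the absolute change over the root of F), CPM use the scaled library totals, and log2 CPM a prior count of 2. Medians over members and lists are descriptions. Alternatives used limma 3.58.1, DESeq2 1.42.0 and others given in the closing section, and the fits were tested on simulated data. Coding lengths and shared 50-base stretches came from the GENCODE annotation of another build than that of the counts, so no gene coordinates go with the counts, and start sites came from RefSeq. Proteins were not analysed here.

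Members, lists and the rule for naming genes were chosen with earlier results of these data known. The rule took, in each comparison, the 5 largest rises and falls past the threshold and 28 members by name. Genes of the lists named singly were chosen after their values were seen. Libraries within a group differed by more than sampling noise in every pair (chi-square per gene of 6.50 or more). The deposited names give gel and PBS libraries of one number the same animal number, and the protocol treats both legs, so they are paired. The same-number correlations of deviations from the group means were 0.14, -0.06, 0.31 and 0.08. Uninjured libraries are not paired. Values of some single genes are not reported here.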

Additional observations from a re-analysis of the deposited data

Results flagged for a closer look

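Of 300 groups of 4 values checked, made of every member, list sum and paralog ratio in each group and the members' share of counts, 13 held 1 library far from the other 3, and chance gives about 1 in 20. Among members, Rpl35 was at 403 CPM in gel library 4 and 310.2 to 316 CPM in the others. Rps3a1 was at 129 CPM in gel library 1 and at 187 CPM or more in the others, and Rpl23a was at 219 CPM in PBS library 1 and at 251 CPM or more in the others. In the uninjured group, Rpl27a was at 175 CPM and Rpl7l1 at 22 CPM in library 1, Rps15 at 426 CPM in library 3 and Rps3 at 211 CPM in library 4, each below the other 3 libraries. Among list sums, the other TOP mRNA genes were at 4075 CPM in gel library 1. In the PBS group, fibroblast markers were at 1317 CPM in library 1, muscle fibre markers at 163596 CPM and satellite cell markers at 75.5 CPM in library 4, and assembly chaperones at 880 CPM in library 3. Assembly chaperones were at 759 CPM in uninjured library 3.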

How the results depend on the processing

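Call counts moved more than the medians. Percentages in brackets give the share of all genes called in the same direction under the same setting. Members lower in PBS against uninjured numbered 15 as reported (3.39%), 5 with library totals only (2.54%) and 9 with no low-count filter (2.06%). They numbered 30 with DESeq2 (4.94%), 49 with 2 groups alone (8.97%) and 8 with the coding length correction added after seeing the data (3.33%). Over the leave-outs of single libraries the number was 1 to 34 (1.59% to 6.40%). Members higher in gel against PBS, 32 as reported (16.6%), were 59 with library totals only (25.2%) and 17 with 2 groups alone (11.4%). They were 17 with the replicate block (12.4%) and 14 to 41 over the leave-outs (9.86% to 22.7%). Members lower there numbered 1 with DESeq2 (13.2%) and 0 to 2 over the leave-outs (8.24% to 20%). In gel against uninjured, members higher, 2 as reported (14.5%), were 15 with library totals only (28.1%) and 1 with the length correction (14.4%). They were 1 to 3 over the leave-outs (9.11% to 20.4%), and 1.30% of the members with at least 100 counts in every library. Members lower, 3 as reported (11.1%), were 0 with library totals only (5.13%) and 1 to 5 over the leave-outs (7.65% to 17.9%). They were 7 with DESeq2 (11.2%) and 5 with the length correction (12.6%). These last counts are 8.64% and 6.33% of members, below the share of all genes. Library totals moved the median log2 fold change to 0.53 in gel against PBS and 0.26 in gel against uninjured. The cause was not tested. With the replicate block the median for gel against PBS was 0.32. Of 67 single-gene fold changes followed through these settings, 0 changed sign. Those of Rpl5 in gel against PBS and in gel against uninjured were not among the 67.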

Other observations

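The mitochondrial ribosomal protein genes, chosen by their symbols (Mrpl and Mrps with a number) after the data were seen, had medians near 0. Of 78 tested, 1 rose and 1 fell in PBS against uninjured, with a median log2 fold change of -0.03, while 2.79% and 3.39% of all genes did. In gel against PBS 4 rose and 5 fell, with a median of -0.03, while 16.6% and 13.2% of all genes did. In gel against uninjured 1 rose and 6 fell, with a median of -0.04, while 14.5% and 11.1% of all genes did. Rpl37rt, a retrogene row outside the symbol rule, held 338, 202, 160 and 1148 counts in gel libraries 1 to 4 and 128 to 388 counts in the other libraries. Pseudogene rows outside the rule held 2001 counts in gel library 4 and 304 to 755 counts in each of the other 11 libraries.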
